A study of Mus musculus with 2 samples.

Results

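The keratins described here are 10 genes of the epidermis, chosen by name, in the skin of newborn mice with and without Pnpla1. They comprise the basal keratins Krt5, Krt14 and Krt15, the suprabasal keratins Krt1, Krt2 and Krt10, and the stress keratins Krt6a, Krt6b, Krt16 and Krt17. All 10 had probes on the array, 14 probes in all, out of 39429 probes for 30133 genes. Total RNA from skin at postnatal day 0 was pooled in equal amounts from 6 Pnpla1+/+ (wild type) pups and from 6 Pnpla1-/- (knockout) pups, all on the strain background C57BL/6N, and each pool was hybridized to 1 Agilent mouse array with 1 dye, Cy3. The knockout is a constitutive loss of Pnpla1 in every tissue, made with a knockout-first targeted allele whose reporter and selection cassettes had been removed by flippase, and the controls were littermates. With 1 array per genotype no test could be made, so every difference below describes these 2 pools and has no replicate between mice.

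Keratins are the intermediate filament proteins of epithelial cells. A type I keratin always pairs with a type II keratin, and the pairs change as a keratinocyte leaves the basal layer. Basal cells make keratin 5 with keratin 14, and spinous and granular cells make keratin 1 with keratin 10, with keratin 2 added in the upper layers. Keratins 6, 16 and 17 are sparse in resting epidermis between follicles and appear in wounds, in hyperproliferative skin disease and in parts of the hair follicle.

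Values are the background-subtracted intensities deposited by the authors. For comparison between arrays, each was divided by the 75th percentile of its array, 2108 in Pnpla1+/+ and 1734 in Pnpla1-/- skin. Each log2 difference is Pnpla1-/- minus Pnpla1+/+ after this scaling. Where a gene had more than 1 probe, its brightest probe stands for it. The level of one probe cannot be compared with that of another. Repeated spots of 385 other probes gave a median technical SD of 0.09 for a log2 difference. This SD holds only the spread between spots within an array. It leaves out variation from labelling, from hybridization and between mice. Each of the 14 keratin probes was spotted once per array, and none was saturated or carried an outlier flag. Pnpla1 itself, at chr17:29026908-29026967 of mm9, read 579 on the Pnpla1+/+ array and 114 on the Pnpla1-/- array (log2 difference -2.07), and whether its probe lies in the deleted part was not determined here.

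The type I genes in this set lie on mouse chromosome 11 and the type II genes on chromosome 15. Close relatives within each cluster can share RNA binding on an array, and some of the probes are shown here. One of the 2 Krt6b probes (chr15:101509450-101509509, minus strand, mm9) is listed in the array's own design for both Krt6a and Krt6b. Set against the dimmer Krt5 probe (chr15:101542056-101542115, minus strand), it matched at 38 of the 47 overlapping bases without gaps, the closest match among all pairs of keratin probes here. Such a comparison of probes with one another cannot show which probes bind RNA of a relative, since no transcripts were compared. Whether any probe here does so was not tested. Capitals mark the bases that match between these probes, each written 5′ to 3′ as in the scanner files.
Krt6b probe, shared with Krt6a: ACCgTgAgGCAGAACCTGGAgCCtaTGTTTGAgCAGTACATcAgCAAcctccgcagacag
Krt5 dimmer probe: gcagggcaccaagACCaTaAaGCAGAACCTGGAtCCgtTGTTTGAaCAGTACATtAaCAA
The probes of the type I basal keratins Krt14 (chr11:100064683-100065288, minus strand, a span longer than the probe) and Krt15 (chr11:99993331-99993390, minus strand) are shown because these genes moved in opposite directions.
Krt14 probe: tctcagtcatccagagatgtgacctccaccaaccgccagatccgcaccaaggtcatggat
Krt15 probe: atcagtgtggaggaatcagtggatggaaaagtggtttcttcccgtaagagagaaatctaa
The brighter Krt2 probe (chr15:101642000-101642059, minus strand) is shown because the gene's probes disagreed.
Krt2 brighter probe: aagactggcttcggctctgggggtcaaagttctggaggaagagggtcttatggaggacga

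Krt6a, Krt6b and Krt16 were far higher in Pnpla1-/- skin, Krt14 was moderately higher and Krt15 lower, while Krt1, Krt2, Krt5, Krt10 and Krt17 differed by less than 2-fold. Of the 10 genes, 4 passed 2-fold upwards and 1 downwards. The same threshold was passed upwards by 6.71% and downwards by 3.04% of all 22374 genes that had a difference, 9.75% in either direction. The median of the 10 differences was 0.43, against 0.00 over all genes. Only 15 genes of the whole array had a larger difference than Krt6b, 16 than Krt6a and 81 than Krt16.

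**Figure D1:**
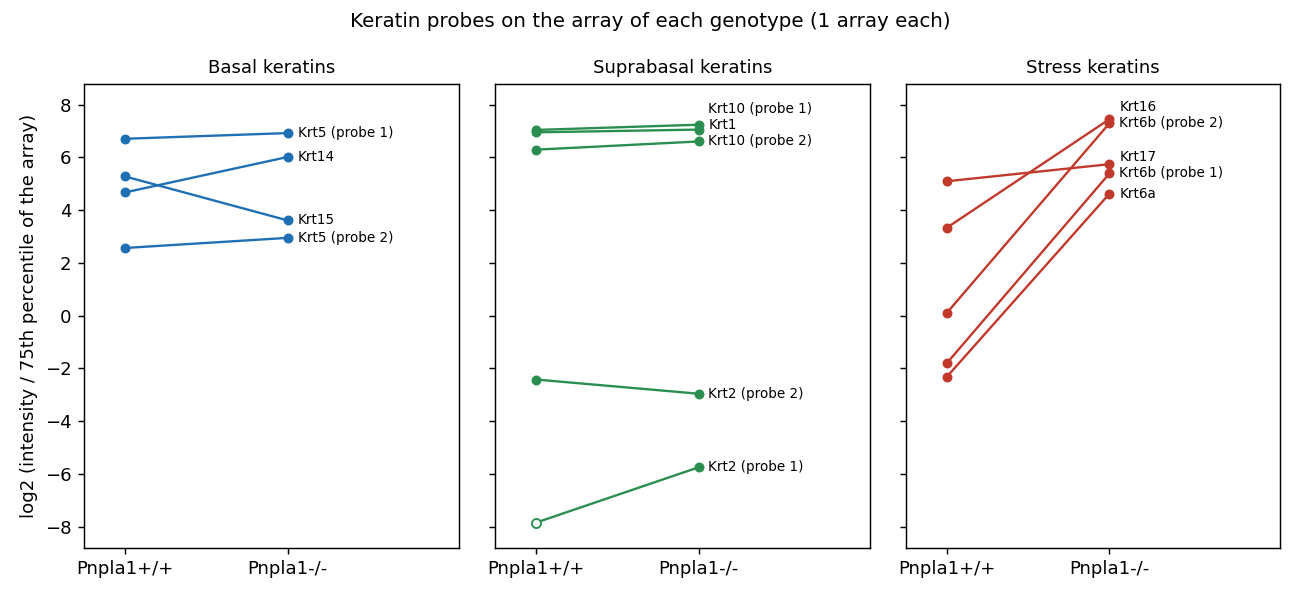
Level of each of the 14 keratin probes on the Pnpla1+/+ and Pnpla1-/- arrays, as log2 of the intensity over the array's 75th percentile (y axis), with 1 line per probe, 1 panel per keratin group and an open circle where the probe was not well above background. The lines of Krt6a, both Krt6b probes and Krt16 rise steeply, those of Krt14 and Krt15 cross, and the heights of different probes are not comparable with one another.

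**Figure D2:**
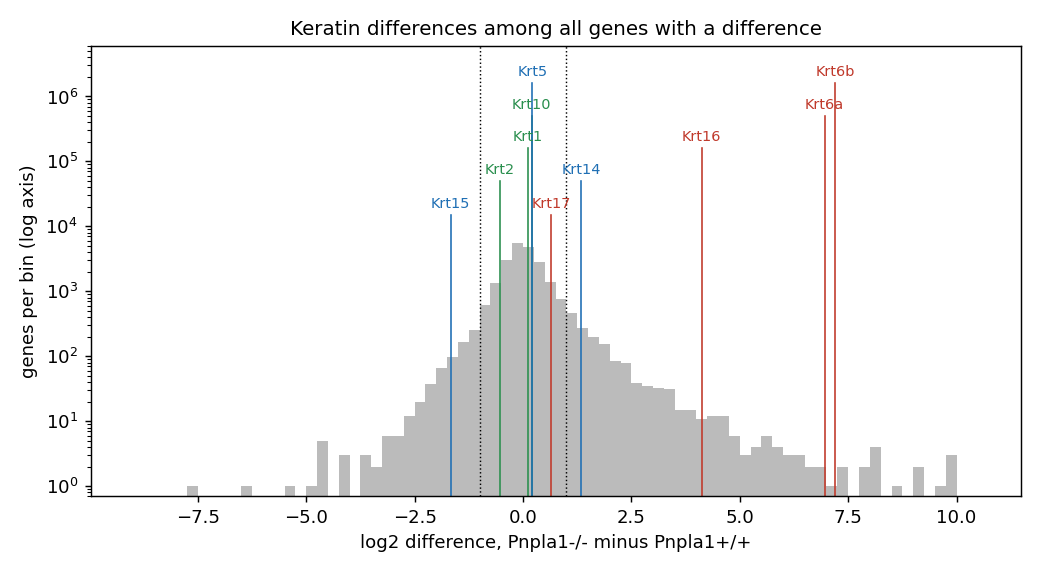
Histogram of the log2 difference, Pnpla1-/- minus Pnpla1+/+, of all 22374 genes with a difference (log y axis, genes per bin), with a vertical line for each keratin and dotted lines at 2-fold. Krt6b at 7.20, Krt6a at 6.96 and Krt16 at 4.13 lie in the sparse upper tail, while Krt1, Krt5 and Krt10 lie in the centre.

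The stress keratins showed the widest changes. Krt6a, a type II keratin induced in wounded epidermis and also made in the companion layer of the hair follicle, read 419.8 in wild-type and 42881 in knockout skin, a 124-fold difference. Its probe lies at chr15:101520862-101520921. For Krt6b, its close relative, the brighter probe (chr15:101506492-101506551) went from 2253 to 273344, a 147-fold difference. The other Krt6b probe, the one also listed for Krt6a and printed above, went from 601 to 73019, a log2 difference of 7.21 beside 7.20 for the brighter probe. All 3 probes of the keratin 6 genes were well above background in Pnpla1+/+ skin, so these are measured differences and not bounds. In the array's design the Krt6a probe and the brighter Krt6b probe are each listed for that gene alone. The differences of Krt6a and Krt6b lay 0.25 apart, but since the genes are near-identical the share of each signal that belongs to which gene was not determined.

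Krt16, the type I keratin that pairs with keratin 6 under stress, read 21192 in wild-type and 304252 in knockout skin at chr11:100107408-100107467, a 17.5-fold difference. Its log2 difference of 4.13 was 2.83 below that of Krt6a and 3.08 below that of Krt6b. A scaling by 1 factor per array cancels in such gaps between genes. Krt17, the other type I stress keratin, which is also made in hair follicles and in early epidermis, behaved differently, reading 72133 in wild-type and 93020.2 in knockout skin at chr11:100117535-100117594. Its log2 difference was 0.65, above the technical SD but under 2-fold, and 3.48 below that of Krt16, its neighbour in the gene cluster. The Krt17 difference became 0.37 with no scaling and 0.22 when the arrays were centred on spike-in RNA. The median of the 4 stress keratins was 5.54.

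The basal keratins did not move together. Krt5, the type II keratin of basal cells, read 220487 in wild-type and 210699 in knockout skin at its brighter probe (chr15:101537514-101537573), a log2 difference of 0.22. The dimmer Krt5 probe, at 12487 and 13405, gave 0.38. Krt14, its type I partner, went from 53789 to 112502, a 2.54-fold difference with a log2 value of 1.35. It fell just under 2-fold, to 0.91, when the arrays were centred on spike-in RNA. The gap between the partners was 1.13 on the log2 scale. Krt15, a type I keratin of basal cells that is strong in the hair follicle bulge and falls in activated epidermis, went from 82002 to 21178, a log2 difference of -1.67, which makes it 3.18-fold lower in Pnpla1-/- skin. Krt14 and Krt15 thus differed from one another by 3.02. The median of the basal keratins, 0.22, is the value of Krt5 and falls below 0 under spike-in centring, quantile normalization and no scaling.

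Basal cell markers other than keratins did not share the higher Krt14. Of 6 basal keratinocyte markers (among them integrins and Trp63), none passed 2-fold in either direction, with a median of -0.32, though 2 were lower by that much after spike-in centring. The lowest was Lama3, a laminin chain of the basement membrane, at -0.71. The summed scaled level of the list, which adds probes of unlike brightness and so follows its brightest gene, was 25 in Pnpla1+/+ and 20.3 in Pnpla1-/- skin. Among 7 hair follicle markers, Lhx2 at -1.28 and Shh at -1.10 were at least 2-fold lower (Shh not with normexp background correction), Sox9 was at -0.34, Edar at -0.32 and Foxn1 in the other direction at 0.52. Of all genes, 3.04% were at least 2-fold lower. The median of the hair follicle list was -0.46, and its summed scaled level, led by Lhx2, was 14.3 in Pnpla1+/+ and 7.40 in Pnpla1-/- skin. The part of either list in the value of Krt15 was not tested. In RNA from whole skin, fewer cells of a type and less RNA per cell cannot be told apart.

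The main suprabasal pair changed little. Krt1, the type II keratin of spinous cells, read 261232 in wild-type and 230904 in knockout skin at chr15:101676107-101676166, and a log2 difference of 0.10, about the size of the technical SD. Krt10, its type I partner, went from 277989 to 262539.8 at its brighter probe (chr11:99247846-99247905), a difference of 0.20, and from 165558 to 168989.5 at its other probe, a difference of 0.31. The gap between Krt1 and Krt10 was 0.10. The direction of Krt1, Krt5 and Krt10 is not fixed by these data, since all 3 were below 0 with spike-in centring (-0.33, -0.22 and -0.23), quantile normalization and no scaling.

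Krt2, the type II keratin of the upper suprabasal layers, was read by a probe well above background on both arrays and by a dim one. Its brighter probe, printed above, read 393 in wild-type and 223 in knockout skin, which is -0.54 on the log2 scale. The other probe (chr15:101641326-101641385) was at 9.12, not well above background, in Pnpla1+/+ and at 32.2 in Pnpla1-/- skin, which makes it at least 1.64-fold higher. The bound sets the bright array's scaled signal against the other array's lowest signal well above background, or against the dim probe's own signal where that is higher. The Krt2 probes therefore pointed in opposite directions, and neither reached 2-fold once the dim probe is taken at its bound.

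The median over all genes, 0.00 as reported, became -0.28 when nothing was scaled and -0.43 after spike-in centring. Under every setting tried, Krt6a stayed between 6.52 and 6.96, Krt6b between 6.77 and 7.21, Krt16 between 3.69 and 4.13, and Krt15 between -2.10 and -1.67. The share of higher genes among all genes past 2-fold was 68.8%, and became 27.5% with spike-in centring, 41.2% with no scaling and 58.8% with quantile normalization.

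**Figure D3:**
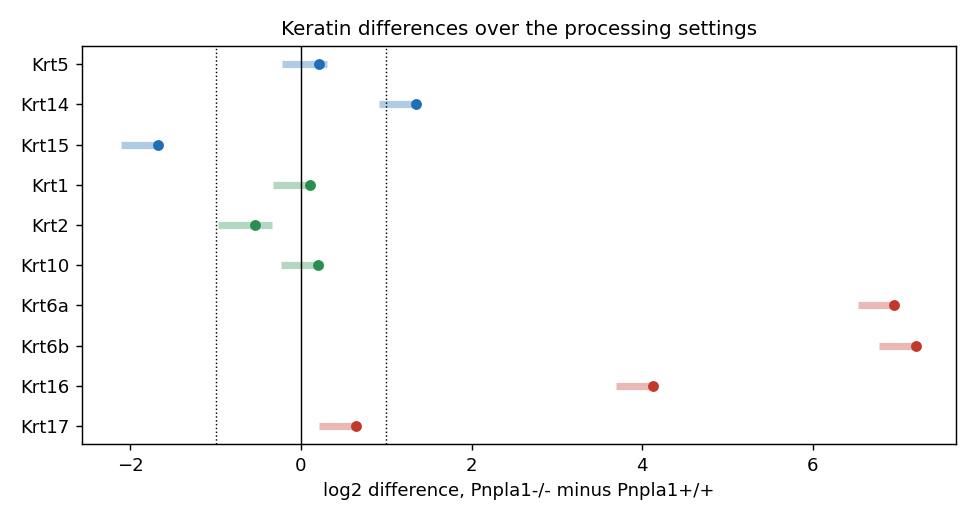
Log2 difference of each keratin, Pnpla1-/- minus Pnpla1+/+, as reported (point) and its range over the 11 processing settings (bar), with dotted lines at 2-fold. The bars of Krt1, Krt5 and Krt10 cross 0, that of Krt14 crosses 2-fold (0.91 to 1.35), and those of Krt6a, Krt6b, Krt16 and Krt15 stay beyond 2-fold.

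Other epithelial keratins and those of the root sheath and companion layer passed 2-fold more often downwards than upwards, while hair shaft keratins were not analysed here. Among 24 such keratins with a difference, 2 passed 2-fold upwards and 9 downwards, with a median of -0.84. Of all genes, 6.71% passed upwards and 3.04% downwards. When nothing was scaled, and likewise after spike-in centring, none passed upwards and 16 downwards, and with normexp 1 and 6 of 23 did. The downward share of all genes was then 6.37% with no scaling, 9.84% with spike-in centring and 1.45% with normexp. Of the 17 other epithelial keratins, 16 had a difference, while Krt76 was too dim on both arrays. Krt7, Krt19 and Krt20, keratins of simple epithelia, glands or Merkel cells, were lower by 2-fold or more, with differences of -1.92, -1.11 and -1.12. With normexp background correction Krt19 and Krt20 were no longer past 2-fold. Krt77, a type II keratin known from sweat ducts and mouse epidermis, was well above background in Pnpla1+/+ skin only, at 164 against 29.5 (its own signal, above the lowest one), and at least 4.58-fold lower, but came under 2-fold with normexp. Krt12, the keratin of corneal epithelium, was at 672 in Pnpla1+/+ and 9.76, not well above background, in Pnpla1-/- skin, at least 25.4-fold lower. Its bound of -4.67 on the log2 scale became -2.69 with normexp, and Krt7 moved to -1.29.

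In the other direction, Krt24, at 81.8 in Pnpla1+/+ and 143 in Pnpla1-/- skin, was higher by 1.09 and came under 2-fold with 4 of the alternative settings. Krt13, a type I keratin of internal stratified epithelia and embryonic epidermis, was higher by 1.15 at its brighter probe (15516 and 28402), while its dimmer probe went from 1133 to 227, a difference of -2.04. The direction of Krt13 therefore depends on the probe, it came under 2-fold with no scaling and after spike-in centring, and its mean over both probes was -0.44. Krt78 and Krt79, type II keratins of differentiated epithelium and of the upper follicle and sebaceous duct, differed by -0.92 and -0.78.

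Keratins of the inner root sheath and companion layer, the sleeve around the growing hair, passed 2-fold in 1 direction, downwards. Of 9 genes, 8 had a difference, 4 were at least 2-fold lower and none higher, with a median of -1.0. After spike-in centring or when nothing was scaled, 7 were at least 2-fold lower. Of all genes, 3.04% were lower as reported, 9.84% after spike-in centring and 6.37% with no scaling. Krt72 went from 2583 to 199.5, a difference of -3.41, followed by Krt26 at -1.80, Krt28 at -1.23 and Krt27 at -1.10. Krt75, the companion layer partner of keratins 16 and 17, stood apart at 0.61. The summed scaled level of the list, led by Krt71, was 79.4 in Pnpla1+/+ and 41.9 in Pnpla1-/- skin, beside the lower hair follicle markers given above.

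Merkel cells, the touch receptor cells of the epidermis, make keratins 8, 18 and 20. Krt8 was at -0.84, Krt18 at 0.27 and Krt20 at -1.12. Krt18 was negative with no scaling and after spike-in centring (lowest -0.16). Chga, a secretory granule protein, went from 4472 to 133, a difference of -4.79 (-4.20 with normexp), and Atoh1, the factor that defines these cells, was well above background in Pnpla1+/+ skin only, at least 2.17-fold lower but under 2-fold with normexp. The 9 markers of the list include Krt8, Krt18 and Krt20 themselves. Of the 9, 3 were at least 2-fold lower (Chga, Atoh1 and the keratin Krt20) and none higher, with a median of -0.59. Of all genes, 3.04% were lower by 2-fold. The lower ones numbered 5 after spike-in centring and 1 with normexp, and the median became -1.02 and -0.16 in the same order. The summed scaled level, 21.3 and 20.2, followed Rab3c, which was at 0.09. The remaining markers of the list were Sox2 at -0.59, Isl1 at -0.10 and Piezo2 at 0.03. Rab3c, Isl1 and Piezo2 changed sign under some settings. The part of the cells marked by the other genes of the list in Krt8 and Krt20 was not tested.

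Keratin filaments end at desmosomes between cells and at hemidesmosomes on the basement membrane. Of 14 desmosomal genes, 3 were at least 2-fold higher and none lower, where 6.71% of all genes were higher and 3.04% lower. The list's median of 0.41 fell to -0.02 under spike-in centring. The 3 higher genes were the cadherins Dsg3 at 1.82, Dsg1b at 1.45 and Dsc1 at 1.20. Dsc1 came under 2-fold with no scaling and after spike-in centring. Desmoplakin, Dsp, which binds the filaments directly, was at 0.52, and the plaque protein Jup at 0.81. Of 6 hemidesmosomal genes, none was higher by 2-fold and Dst, a plakin, was lower at its brightest probe (-1.12), while its other probes gave -0.20 and 0.19. Plectin, Plec, was at -0.12, and the integrin subunits Itga6 and Itgb4 were at 0.16 and -0.05.

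Of 10 transcription factors known for keratin genes, Grhl3, a factor of barrier formation and wound repair, went from 4689 to 21384, a difference of 2.47, and Stat3 differed by 1.19, under 2-fold with no scaling and after spike-in centring. Only these 2 of the list passed 2-fold, both upwards, where 6.71% of all genes did. Nfe2l2, which encodes NRF2, was just under 2-fold at 0.99 and Cebpb at 0.82. Trp63, the factor of epidermal identity, differed by 0.14, and the list's median was 0.31, or -0.12 with spike-in centring. Intermediate filament genes outside the keratins did not share the change of keratin 6. Of 8 with a difference, none passed 2-fold (Gfap did after spike-in centring and when nothing was scaled), and the largest were Prph, bounded at 0.88, and Gfap at -0.85.

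**Figure D4:**
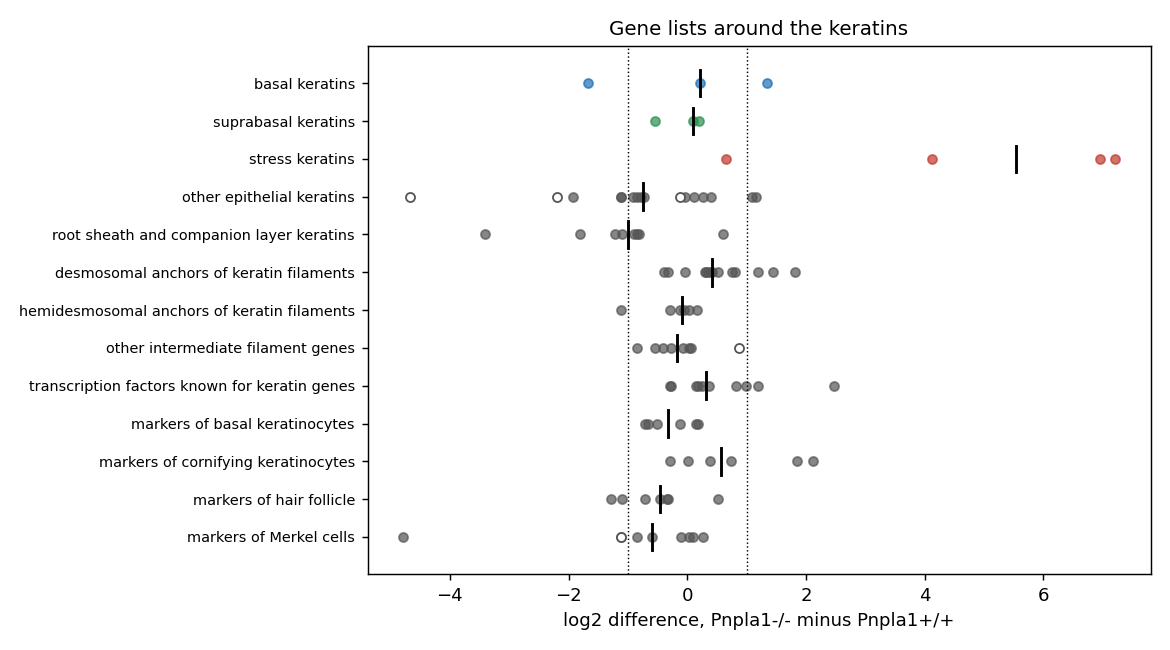
Log2 difference, Pnpla1-/- minus Pnpla1+/+, of each gene (point; open where it is a bound) in the keratin groups and the lists around them, with the list median (black bar) and dotted lines at 2-fold. The stress keratins spread from 0.65 to 7.20, while the root sheath keratins lie below 0 except Krt75 at 0.61.

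Of 6 leukocyte markers only Ptprc was at least 2-fold higher, at 1.51, where 6.71% of all genes were. The summed scaled level of the list, led by Csf1r, was 13.2 in Pnpla1+/+ and 17.5 in Pnpla1-/- skin. The list's median of 0.41 became -0.02 after spike-in centring. Itgam was at -0.03 by its brightest probe and at 1.32 as the mean over its probes, which would make it another marker past 2-fold. None of the fibroblast, melanocyte, skeletal muscle, endothelium or adipocyte markers passed 2-fold, and the medians of these 5 lists lay between -0.38 (melanocytes) and 0.28 (endothelium). After spike-in centring these 5 medians lay between -0.81 (melanocytes) and -0.15 (endothelium). The labels name skin and the series' design text also epidermis. Keratinocyte, fibroblast, skeletal muscle and adipocyte markers were all well above background on both arrays, among them Col1a2 of fibroblasts, at 275482 in wild-type and 201776 in knockout skin. Of 6 markers of cornifying keratinocytes, Tgm3 at 2.12 and Tgm1 at 1.86, crosslinking enzymes of the cornified envelope, were at least 2-fold higher, Lor was at -0.30, and the list's median was 0.56 (0.13 after spike-in centring). The summed scaled level, led by Lor, was 148 and 144. The other Tgm3 probe gave 0.03.

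Across the array, the genes nearest in difference to each keratin past 2-fold were picked by the absolute gap between log2 differences, over these 2 arrays only. Nearest to Krt6b were Gm5476 at 7.25, Lce3f at 7.36 and Krt6a. Nearest to Krt6a were Ankk1 at 6.74, Krt6b and Gm5476. Cyp2c38 at 4.13 was nearest to Krt16. Mal2, Hcls1 and Rassf4, each at 1.35, were nearest to Krt14, and Zfyve28 at -1.67 with Calhm4 and Plppr1, both at -1.68, were nearest to Krt15. With 1 array per genotype, likeness here means a similar size of difference and nothing more.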

How the data were processed

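Skin RNA was measured on 1 Agilent mouse gene expression array per genotype, and each array was assigned to its genotype from the sample labels. The authors processed the scans with Feature Extraction 11.5.1.1 and deposited, per spot, a background-subtracted and detrended intensity that is not scaled between arrays, with the mean and local background intensity and flags. They also deposited a table of ratios, each the processed intensity over 1 factor per array (2109 and 1734), next to the 75th percentile. The methods call this global normalization.

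From the intensities, log2 differences after 75th percentile scaling were computed (Python 3.11.15, pandas 2.3.3, numpy 2.4.6), leaving out outlier-flagged spots (138 and 82). Of the spots, 71.7% in Pnpla1+/+ and 73.3% in Pnpla1-/- skin were well above background, and none of 43020 was saturated. The number of arrays limits the precision. Of 30133 genes, 20680 had a measured difference and 1694 a bound, and 7759 had none. Of 39429 probes, 27502 took their gene name through an accession, 3549 through a current symbol and 404 through a former one in a RefSeq table of assembly GRCm38.p6, used for names only, and 7974 kept the files' name. Probe coordinates are those of the files, on mm9.

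The keratins, lists, 2-fold threshold and naming rule were chosen with earlier results of these data known. Named genes were all keratin members, list genes past 2-fold (otherwise the 2 largest) and the 3 nearest genes in difference to each member past 2-fold. A few genes that this rule names are not reported here. Other genes named, with their roles, were chosen after their values were seen. Alternatives were other scalings, limma 3.58.1 under R 4.3.3 for quantile normalization and normexp (offset 50), the authors' ratios, other probe and spot rules, and thresholds of 1.5-fold and 3-fold. The computation was tested on simulated data.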

Additional observations from a re-analysis of the deposited data

How the results depend on the processing

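The medians changed sign under a few scalings. For the basal keratins the median was -0.066 with no scaling, -0.22 with spike-in centring and -0.0035 with quantile normalization. For the suprabasal keratins it was -0.18, -0.33 and -0.10 in the same order. Under these scalings the basal median is the value of Krt5 and the suprabasal median that of Krt1. Krt10 was at -0.082, -0.23 and -0.036. The stress keratin median stayed above 5, at 5.26 with no scaling, 5.11 with spike-in centring, 5.37 with quantile normalization and 5.41 with normexp. Scalings by 1 factor move all genes alike by construction. The cause of the other shifts was not tested.

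Keratins at least 2-fold higher numbered 4, or 3 with spike-in centring and at 3-fold and 5 at 1.5-fold, and 1 was lower under each setting. Of all genes with a difference, 6.71% were higher and 3.04% lower, against 4.47% and 6.37% with no scaling, 3.74% and 9.84% with spike-in centring, 4.34% and 1.45% with normexp, 10.1% and 3.67% with no filter on dim probes, which adds genes to the total, 13.8% and 9.35% at 1.5-fold, and 3.06% and 1.02% at 3-fold. Of all values under alternatives, 126 stayed within the technical SD or, for counts and shares, within 1.5 times the reported value, while 37 moved further and 15 changed sign. These counts take a group median and the gene that it equals separately. The pools also differed in sex-linked genes (Xist 1.12, Ddx3y -2.19 and Eif2s3y -2.19), whose part in the keratin values was not tested. A slide term could not be fitted with 1 array per genotype. No paired analysis was possible because each genotype has 1 array.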
